A study of Saccharomyces cerevisiae
Saccharomyces paradoxus with 24 samples.

Results

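The weakly bound Rap1 windows are the 402 of 1118 windows in the deposited table whose 0 min ChIP signal averaged under 100 over both replicates. They were selected on the 0 min ChIP values, so their low starting level is the choice itself and not a result. As signal, the table gives the reads that fell within 150 bp of a peak summit for every 1000000 reads of the S. paradoxus spike-in. Among the members the 0 min mean had a lowest value of 2.18, quartiles of 68.2 and 91.2, a median of 81.3 and a highest value of 99.9. The other 716 windows had a median of 212 and a highest value of 19027. Just inside the threshold stood windows in YPR137C-B (99.8), RPS27B (99.8) and ASC1 (99.9), and just outside it windows in PIL1 (100.1), YGR027W-B (100.2) and YGR161C-D (100.3). The threshold cuts through a dense range, since 260 members lay between 75 and 100 and 186 other windows between 100 and 125. It also rests on the replicate mean. In replicate 1 none of the members reached 100 and 180 of the other windows stayed under it, while in replicate 2 the signal of 170 members was 100 or more.

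Rap1 is a DNA-binding protein of budding yeast that activates ribosomal protein and glycolytic genes, sits on the telomere repeats and takes part in silencing at the mating-type loci and near chromosome ends. Anchor-away removes a tagged protein from the nucleus. Here rapamycin couples FRB-tagged Rap1 to FKBP12 on Rpl13A, a ribosomal protein that leaves the nucleus with the maturing ribosome. The signal that remains on DNA at successive times then follows how quickly Rap1 leaves each site and is not replaced.

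The study followed V5-tagged Rap1 by ChIP-seq at 5, 10, 15, 20, 30, 45 and 60 min in 7.5 µM rapamycin and in a 0 min sample, which had 60 min in DMSO, with input chromatin at 0 min. There were 2 isolates, JRy15237 (replicate 1) and JRy15238 (replicate 2), giving 16 ChIP and 2 input libraries. Both carry, at every time and in the 0 min controls too, the Rap1(134)-FRB_2xV5 allele, the RPL13A-2xFKBP12::TRP1 anchor, TOR1(S1972I) and fpr1::NAT, bar1delta, a deletion of HMR and an HML with SNPs, and both grew in YPD. Every sample also held cells of S. paradoxus strain JRy15212 with Rap1-2xV5, which had seen no rapamycin. Untagged and sir4delta samples were not analysed here. The V5 tag of both species is precipitated, and the reads of the S. paradoxus cells set the scale.

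Spike-in reads numbered 4397759 to 9219038 in a ChIP library. The median weak window had 68 reads in the ChIP library with the fewest (replicate 1 at 30 min) and 494 in that with the most, and 136.5 and 141 in the inputs. In a single case a weak window had 0 reads, the lowest window in RPL8B at 60 min in replicate 2, and a count of 0 allows up to 3 reads by counting error alone.

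Most weak windows lay over genes rather than between them. Of the 402, 191 had their summit inside an open reading frame (ORF) and outside the other classes, which is 47.5% of the members against 17.9% of the other windows. A further 107 overlapped a tRNA gene (26.6% against 18.4%). Only 31 had a summit within 300 bp upstream of an ORF start (7.71% against 26.5%), 12 lay within 15 kb of a chromosome end (2.99% against 11.7%), 61 fell in none of these classes (15.2% against 22.5%), and none lay in the rDNA region, which held 21 of the other windows. Counted from the windows instead, 59.9% of all windows inside ORFs were weak, 44.8% of those at tRNA genes and 14.0% of those upstream of ORFs. Where the flanking genes were tandem, divergent or convergent, the weak windows numbered 96, 64 and 38, and the other windows 262, 220 and 47. In the paper, peaks centred on tRNA genes or Ty elements were left out of the residence-time analysis. The paper reports that their apparent residence times were rather short and that its decay model fitted them well. It states that no link is known between Rap1 and genes read by polymerase III. It adds that strongly transcribed loci often give ChIP artifacts. The set it analysed held peaks shortly before a gene start or near a chromosome end, and so not the windows classed inside ORFs. Whether such artifacts add to the signal of the weak windows was not tested.

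In all, 201 summits fell inside 146 ORFs, classes ignored, and 44 of these ORFs held more than 1 weak summit. Ribosomal protein genes held 91 weak summits, in 66 of the 138 genes of that name, and 48 summits of the 154 other windows inside ORFs. HSC82 (Hsp90), SSB1 (a ribosome-bound Hsp70), YEF3 (translation elongation factor 3) and RPS0B held 4 each, and PMA1 (the plasma membrane proton pump), NSR1 (a nucleolar protein of ribosome synthesis), EFT2 and TEF4 (elongation factors) and HSP150 (a cell wall protein) held 3 each. Of the 17 glycolysis and fermentation genes on the list used here, ADH1, ENO1, FBA1, GPM1, PGI1 and TDH2 held 9 weak summits, and the list held 10 of the other summits. The translation factor list held 10 weak and 7 other summits, and the heat shock list 10 and 4. All 8 core histone genes held a weak summit, 9 in total, and no other window lay inside them; this list was made after the values were seen. The weak summits lay at a median of 61.9% of the ORF length from its start (59.5% for the 154 other windows inside ORFs). With each ORF cut into 3 equal stretches, 57 weak summits lay in the first, 54 in the middle and 90 in the last. Of the 154 others 35, 60 and 59 did. Counted whether or not the summit lay inside an ORF, 26 weak windows overlapped small nuclear or nucleolar RNA genes, as did 18 of the others.

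Weak windows crowded together. For 71 of them (17.7%) another summit lay within 300 bp, so that the windows share bases, against 14 of the others (1.96%). In each of these 71 cases the neighbour was also weak. How a read over 2 such windows was counted is not given in the sources used here. A pair near CHA1 with summits 19 bp apart had replicate 1 inputs of 7.49 and 11.2, against a median of 170 in weak windows. Whether overlap lowered the signal of such windows, and so brought them under 100, was not tested. Merged where they overlap, the 402 windows make 363 separate stretches, the longest with 4 windows, in RPS0B. The counts below are of windows, and windows of a stretch are not independent. Along the genome there were 3.33 weak windows per 100 kb. Chromosome XI had the highest density, with 40 of its 74 windows weak, and chromosome I the lowest, with 1 of 15 (0.434 per 100 kb). Within 15 kb of a chromosome end 12 of 96 windows were weak, from 15 to 50 kb 24 of 59, from 50 to 100 kb 36 of 143, and further in 330 of 819.

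At 0 min the ChIP signal of the median weak window was under that of its input. The ratio of ChIP to input had a median of 0.376 in replicate 1 and 0.261 in replicate 2, against 0.864 and 0.571 in the other windows. Both values are per spike-in read, and the spike-in was itself precipitated, so 1 is not the ratio of an unbound site and only the comparison between windows can be read. The ChIP part of the ratio chose the members, and the input did not. Input signal in the weak windows had a median of 270, against 309 in the others. Of the weak windows 31 had an input under 148, which is 0.5 of the median over all windows, as did 4 of the other windows, and these 31 had a median ChIP signal of 34.0 and a median ratio of 0.357. They are weak by signal while their ratio is close to the median of all members, 0.321. Members with more input had more ChIP signal (Spearman's rho 0.58 over the 402 windows, a description of windows that share libraries and were cut at 100).

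**Figure D1:**
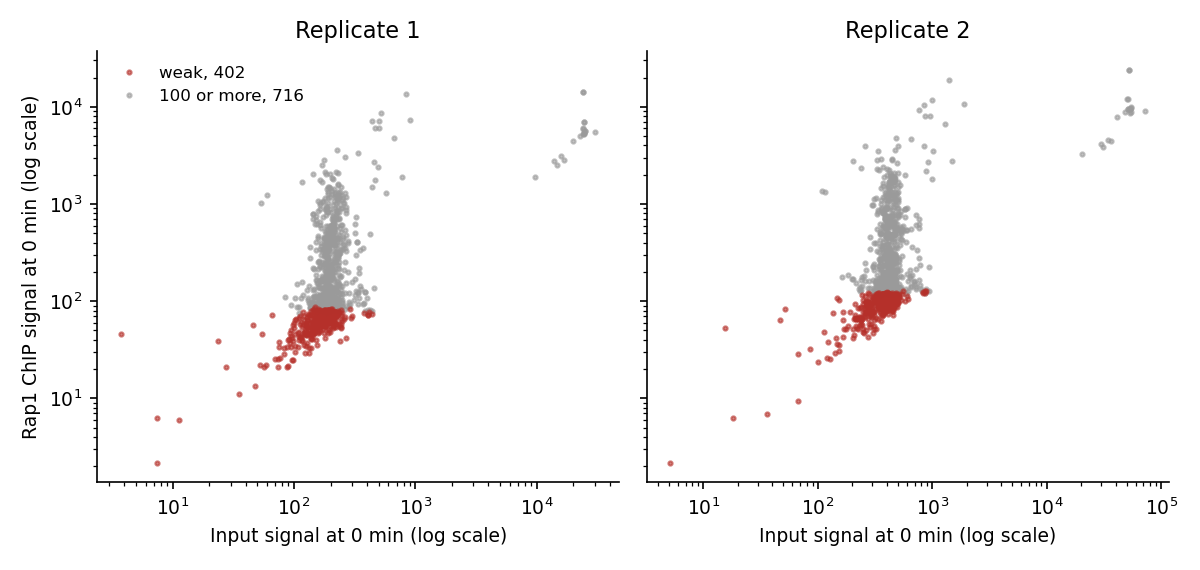
ChIP signal (y axis) against input signal (x axis) at 0 min, both in reads per 1000000 S. paradoxus reads on log scales, for each weak window (red) and each other window (grey) in replicates 1 and 2. A tail of weak windows runs down to inputs under 10 together with its ChIP signal, while most weak windows share the input range of the others.

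The lowest members were low in the input as well. The lowest of all lay inside RPL8B, which encodes a large-subunit ribosomal protein (XII:47997-48297), with a 0 min ChIP signal of 2.18 in replicate 1 and 2.17 in replicate 2, on inputs of 7.49 and 5.15, which are 6 and 2 reads. A pair of overlapping windows between HML and CHA1, a serine deaminase gene, at III:15271-15571 and III:15252-15552, had 6.28 and 6.32, and 6.01 and 6.91, on inputs between 7.49 and 36.1. A window inside VBA5, an amino acid transporter gene (XI:660128-660428), had 11.1 and 9.47 on 28 and 26 input reads. Ratios at these windows rest on too few reads to be placed. Each of these 4 windows overlapped another window, with the nearest summit at 60 bp in RPL8B, 19 bp in the pair and 79 bp in VBA5. Another VBA5 window, at XI:659835-660135, had inputs of 167 and 343. RPL8B and VBA5 also have near-identical copies elsewhere in the genome, and how reads with several matches were assigned is not given in the sources used here. The part of overlap or of copies in the low inputs was not tested.

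The 4 highest ratios lay near chromosome ends and the 4 lowest in retrotransposon frames. The 12 weak windows within 15 kb of an end nevertheless had a median ratio of 0.312, under the 0.321 of all members, since those at VBA5, GEX2, FRE2 and HXK1 had 0.227 to 0.338. The first 262 bp of chromosome VII, labelled by COS12, had ratios of 12.2 and 3.41, resting on 3 and 6 input reads. The window at VII:467-767 had 1.66 and 1.37, and those at XIV:783313-783613 and XIV:782984-783284, near YNR077C, had 1.23 and 1.61, and 1.08 and 0.733. Only these 4 members exceeded the median of the other windows. The 4 lowest ratios were in YLR227W-B (0.169 and 0.141), YDR261C-D (0.175 and 0.148), YDR365W-B (0.180 and 0.143) and YDR098C-B (0.188 and 0.147), all frames of Ty retrotransposons. The 7 weak windows in such nested Ty frames had inputs of 438 to 651, above the median of the weak windows, and 0 min ChIP signals of 85.5 to 99.8. Ty elements are present in many copies with almost the same sequence, so their reads cannot be assigned to a single element.

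Rap1 signal left the weak windows mainly between 5 and 15 min in rapamycin and changed less after that. In replicate 1 the median signal was 65.1, 59.7, 26.3, 15.2, 13.7, 15.5, 15.7 and 10.5 at 0, 5, 10, 15, 20, 30, 45 and 60 min, and in replicate 2 it was 97.5, 80.2, 33.7, 17.4, 13.2, 16.2, 13.9 and 15.4. Replicate 2 was higher up to 15 min, and from 20 min on neither replicate was higher throughout. The median members held 94.5% and 85.1% of their own 0 min signal at 5 min, 44.3% and 36.8% at 10 min, 22.6% and 14.1% at 20 min and 17.3% and 17.5% at 60 min in replicates 1 and 2.

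The 0 min libraries chose the members, so changes were tested from 5 min on, in limma on log2(signal + 1) with all 16 ChIP libraries, Benjamini-Hochberg adjustment over the 1118 windows and a threshold of 0.05. At 10 min 385 of the 402 weak windows were lower than at 5 min, against 73.3% of all windows tested, and 435 of the 716 others were (60.8%). Without 5 min replicate 2 the count of weak windows was 250. At 15 min 400 weak windows were lower (93.5% of all windows), and the count remained 400 at 20 min (94.2%), 30 min (95%), 45 min (95.3%) and 60 min (96.2%). No weak window was higher at any of these times. The median weak window had changed by -1.09 on the log2 scale at 10 min, -2.19 at 20 min and -2.22 at 60 min, against -0.82, -1.95 and -2.24 in the others. These differences between the medians of both sets were not tested. At 5 min no weak window was lower than at 0 min in limma (0% of all windows), 16 were at an unadjusted p under 0.05, and limma with a trend in the spread also called 0. At 60 min 400 were lower than at 0 min (96% of all windows), which is a description, since those libraries set the choice.

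**Figure D2:**
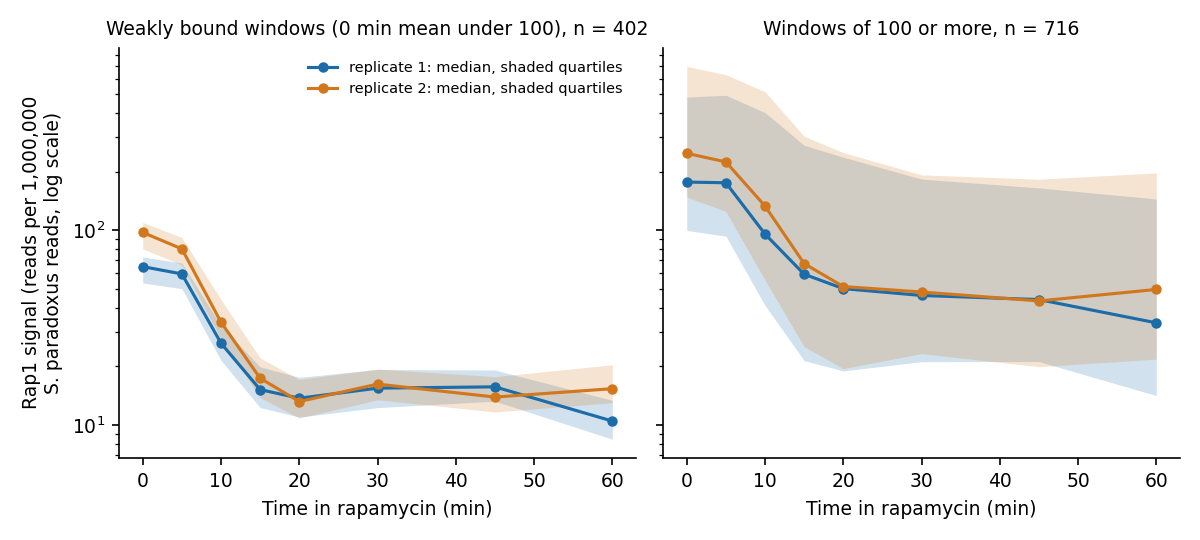
Rap1 signal (y axis, log scale, reads per 1000000 S. paradoxus reads) against time in rapamycin (min) in the weak windows on the left and the other windows on the right, with the median as points and lines and the quartiles shaded for each replicate. Most of the fall in the weak windows came by 15 to 20 min, at medians of 13.2 to 17.4, and the medians at 60 min were 10.5 and 15.4.

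These falls are relative to the spike-in. When each library was scaled to its total over all windows, the median of all windows moved up by 0.47 at 10 min and 1.36 at 60 min against 5 min on the log2 scale. Under that scaling 324 weak windows were lower and 2 higher at 10 min, and 351 lower and 7 higher at 60 min. Of all 1118 windows, 692 were lower and 65 higher at 10 min, and 849 lower and 128 higher at 60 min. The share of all window reads that fell in weak windows was 5.43% and 5.51% at 0 min, 4.84% and 4.84% at 5 min, 3.23% and 3.16% at 10 min, and between 2.46% and 2.95% from 15 min on. In the inputs it was 10.3% and 10.2%.

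Only 2 weak windows were not lower at 60 min than at 5 min. One is the chromosome VII end window described above, with a log2 change of -0.39 (adjusted p = 0.15 from limma). The other lies between MAE1, the mitochondrial malic enzyme gene, and TFA1, a subunit gene of transcription factor TFIIE, which diverge from it (XI:385057-385357), with a change of -0.47 (adjusted p = 0.087 from limma).

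As a description, since it uses the 0 min values that chose the members, an exponential decay to a plateau was fitted to the signal relative to 0 min. It gave a rate with p under 0.05 in both replicates for 394 weak windows, against 90.9% of all windows. The apparent residence time, the inverse of that rate, had a median of 8.82 min in the weak windows (quartiles 8.27 and 10.3) and 10.4 min in the 622 others that passed. Windows that did not pass are missing from these medians. Near chromosome ends only 25 of the 84 other windows passed, and 8 of the 12 weak ones. Little signal had left at 5 min, which an exponential that starts at 0 min does not follow, and the value moved with the fit. From 5 min on alone the medians were 3.85 min in the weak and 5.03 min in the other windows (369 and 598 passed), and with the plateau held at 0 they were 13.6 and 18.0 min.

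The early loss differed with the kind of site. At tRNA genes the weak windows held a median of 38.5% and 36.8% of their 5 min signal at 10 min (replicates 1 and 2), and the other tRNA windows 38.7% and 38.7%. Inside ORFs it was 52.4% and 51.6%, against 52.7% and 53.4%. Within these classes weak and other windows were thus within a few percentage points. Upstream of ORFs the weak windows held 47.3% and 45.7% at 10 min, and the other windows 71.8% and 72.3%. In the windows of no class it was 46.6% and 45.0%, against 73.3% and 74.2%. Near chromosome ends it was 59.6% and 57.9%, against 66.9% and 76.7%. At 10 min the weak windows thus held less than the others in both replicates upstream of ORFs, in the unclassed windows and near chromosome ends. The other windows upstream of ORFs and in no class also started higher, at medians of 406 and 391, and those among them between 100 and 150 held 47.9% and 44.9% upstream of ORFs (23 windows) and 43.5% and 45.6% in no class (32 windows). At 60 min 17.2% and 21.4% of the 5 min signal remained in weak windows upstream of ORFs, and 18.3% and 20.4% in the others. In the unclassed it was 18.0% and 23.5%, against 20.5% and 23.6%. Near chromosome ends 31.1% and 34.8% remained in the weak windows, against 46.1% and 53.6% in the others. Those others differed with their 0 min signal. The 39 of 500 or more held 74.8% and 71.6%. The 18 of 150 to 250 held 32.1% and 37.4%, and the 13 of 250 to 500 held 35.3% and 39.6%, closer to the weak windows. The 14 of 100 to 150 held 40.01% and 42.20%.

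**Figure D3:**
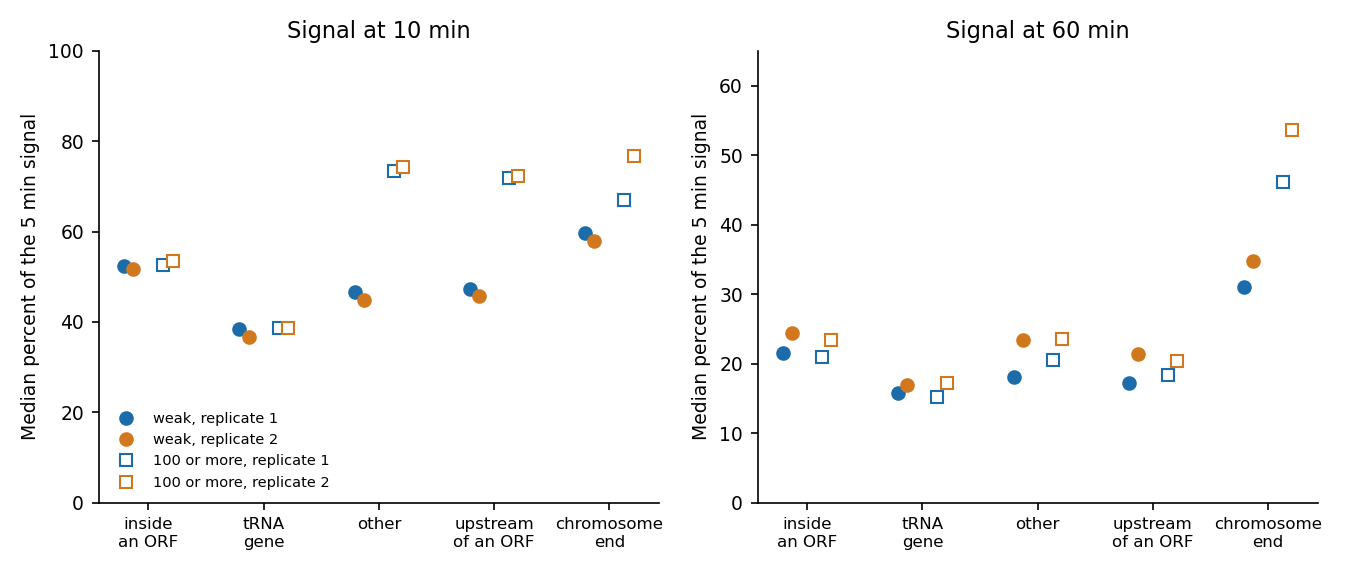
Median percent of the 5 min signal that remained at 10 min (left) and at 60 min (right) in each class of site, for weak windows (filled circles, to the left in each class) and the others (open squares), with 1 point per replicate. At 10 min weak and other windows stand together at tRNA genes and inside ORFs and apart in the other classes, and at 60 min they stand apart near chromosome ends. The y axes start at 0 and end at 100% and 65%.

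Around these medians the members spread more than counting error alone gives. The log2 change from 5 min to 60 min had a spread between weak windows, taken as the quartile range scaled to an SD, of 0.43 in replicate 1 and 0.44 in replicate 2, while the reads in a median window give a counting SD of 0.16 and 0.16. At 10 min the spread was 0.34 and 0.38 and the counting SD 0.12 and 0.13. The changes of the windows were alike in both isolates (Pearson's r 0.86 at 60 min and 0.76 at 10 min, over 402 windows of the same libraries, as a description).

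To find the windows that leave the common curve, each library was centred on the median of its weak windows, and the change from 5 min to the mean of 30, 45 and 60 min was tested in limma. This departure is 0 for a window that changes as the library medians do, and a positive value means that it fell less. The departures of the members themselves had a median of 0.10, close to the median standard error of a single departure, 0.10, so the zero is not the middle of their distribution and the counts on its upper side include that offset. Of the 402 weak windows 136 fell less than the library medians (33.8%, against 39.5% of all windows), and 49 fell more (12.2%, against 25% of all windows). The count that fell more was 25 without 5 min replicate 1 and 27 without 5 min replicate 2. All 185 had the same sign in both replicates, which a call on the mean of both makes likely. Of all 402 members, called or not, 331 had the same sign in both. The departures had quartiles of -0.12 and 0.34 and a range of -0.62 to 1.85 in the weak windows, and quartiles of -0.34 and 0.76 in the others, so the weak windows kept closer to each other.

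**Figure D4:**
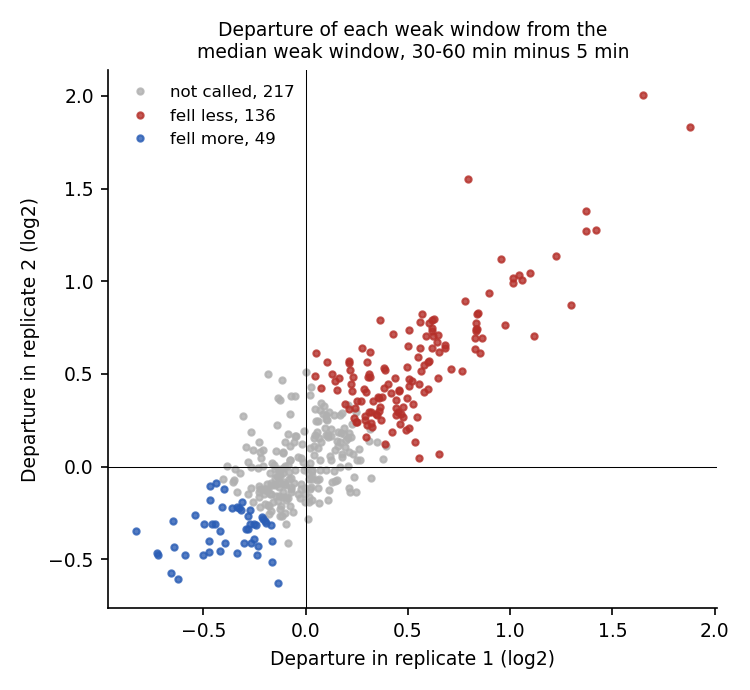
Departure of each weak window from the library medians of the weak windows in replicate 1 (x axis) and replicate 2 (y axis), on the log2 scale, with windows called by limma in red (136 fell less) and blue (49 fell more) and the 217 not called in grey. The points run along the diagonal, with Pearson's r 0.87, and the upper tail is longer than the lower one.

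Departures went by class in the weak windows. Inside ORFs 88 of 191 fell less and 15 more, with a median departure of 0.21, and 53 and 31 of the 128 others. At tRNA genes 4 of 107 fell less and 23 more, with a median of -0.12 and quartiles of -0.21 and -0.02, and of the 132 others 13 fell less and 54 more (40.9%, against 21.5% in the weak windows). Near chromosome ends 11 of 12 fell less and none more, with a median of 1.01, and the 12 windows are 7 separate stretches. The 84 others there had the same share that fell less, 77 windows, with a median of 1.55. Upstream of ORFs 10 of 31 fell less and 6 more, and 72 and 87 of the 190 others. Among the unclassed 23 of 61 fell less and 5 more, and 72 and 54 of the 161 others. The weak windows inside ribosomal protein ORFs took both sides, with 44 of 91 that fell less and 13 that fell more, and among the 100 other weak windows of the ORF class 44 fell less and 2 more. On the other lists used here 6 of 10 weak windows inside heat shock ORFs fell less, as did 2 of 10 in translation factor ORFs and 2 of 9 in glycolysis and fermentation ORFs, with none that fell more. These windows lay in only 3, 3 and 6 genes, and windows of the same gene are not separate cases. Over all windows 39.5% fell less and 25% more. None of the 9 in histone ORFs was called, and their median departure was -0.09. Of the 41 members under 50, 24 fell less and none more, and the pseudocount makes a fall look smaller in such low windows. The lowest window, in RPL8B, was called (adjusted p = 1.67e-05 from limma) and was not with a trend in the spread (adjusted p = 0.068 from limma).

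The MAE1 and TFA1 window kept the most signal at 60 min of all members. In replicate 1 its signal was 69.5, 82.5, 60.7, 48.2, 59.1, 66.4, 69.0 and 53.1 at 0, 5, 10, 15, 20, 30, 45 and 60 min, and in replicate 2 it was 119, 105, 92.4, 65.2, 69.2, 83.5, 82.1 and 84.0. After a low at 15 min both replicates stood higher at 30 and 45 min. Its departure was 1.83 (1.65 and 2.01 in replicates 1 and 2, adjusted p = 1.3e-14 from limma). The nearest window of 100 or more, 2882 bp away and labelled by IXR1, had a departure of 2.43.

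The first 262 bp of chromosome VII had a departure of 1.85 (adjusted p = 2.43e-14 from limma). Its signal was 45.7, 44.8, 41.1, 39.2, 41.5, 44.6, 39.6 and 35.4 over the 8 times in replicate 1, and 52.7, 50.5, 46.5, 39.8, 35.1, 37.1, 32.6 and 36.7 in replicate 2. The replicates overlap from 15 min on, and the loss stayed small in both. The window at VII:467-767, also before COS12, fell further, and its signal at 60 min was 30.8% and 29.7% of that at 5 min.

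Several of the next least affected windows lay beside strong sites. A window inside BUD20, a gene for a ribosome export factor, 524 bp from a window of 428 (XII:281998-282298), had 44.7 at 60 min and 68.9 at 5 min in replicate 1, and 54.7 and 89.7 in replicate 2. Its departure was 1.37 (adjusted p = 1.9e-13 from limma). A window inside KRS1, the lysyl-tRNA synthetase gene (IV:525522-525822), had 32.3 at 60 min and 62.1 at 5 min in replicate 1, and 45.8 and 92.4 in replicate 2, with a departure of 1.32 (adjusted p = 2.48e-13 from limma). The other 4 of the 8 windows that fell least lay between YBL029W and YBL028C, inside PRS1 (phosphoribosyl pyrophosphate synthetase) next to the RPL17A site, upstream of YJR115W and inside GEX2, with departures of 1.35, 1.18, 1.17 and 1.09. The YJR115W window had 78.4, 74.7 and 77.6 at 0, 5 and 10 min in replicate 1, and 117, 77.2 and 102 in replicate 2. Its change from 5 to 10 min was not called (adjusted p = 0.44 from limma), and at 60 min it had 24.9 and 40.4. Its departure was 0.79 in replicate 1 and 1.55 in replicate 2, where the 5 min value was under those at 0 and 10 min.

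The 8 windows that fell most had signals of 5.10 to 13.3 at 60 min. A pair of them lay between convergent genes, 1 between YPT7, a vacuolar Rab GTPase gene, and CDC5, the polo kinase gene (XIII:267956-268256), and 1 between RMD1 and NTH1, the neutral trehalase gene (IV:449637-449937). The YPT7 window had 12.6 at 10 min and 57.9 at 5 min in replicate 1, and 26.3 and 92.2 in replicate 2. The RMD1 window had 8.45 and 53.2 in replicate 1, and 21.6 and 77.4 in replicate 2, so most of its loss had come by 10 min. Their departures were -0.62 and -0.61 (adjusted p = 2.81e-04 and 1.56e-03 from limma).

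Ribosomal protein ORFs held 4 of the other 6. Both windows in RPL42A fell with departures of -0.60 and -0.59 (adjusted p = 9.23e-06 and 5.54e-05 from limma), and those in RPL14B and RPS25B with -0.54 and -0.49. In replicate 1 the RPL42A window at XIV:331388-331688 had 59.0, 61.6, 28.9, 13.0, 9.11, 8.87, 10.4 and 5.87 over the 8 times, and in replicate 2 it had 89.4, 77.8, 37.5, 17.9, 10.2, 11.4, 8.71 and 10.8. Its fall went on after 15 min, when the median weak window changed less. The window upstream of SSL1, a TFIIH subunit gene, had a departure of -0.60.

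Among the highest 5 min signals of each class, the window in RPL13A, the gene that carries the FKBP12 tag in these strains (IV:308798-309098), had 29.6 at 60 min and 88.7 at 5 min in replicate 1, and 41.4 and 127 in replicate 2. The tRNA gene YNCJ0026W (X:541395-541695) had 12.0 and 76.1, and 16.1 and 104, close to the median weak window with a departure of -0.19 that did not pass (adjusted p = 0.097 from limma). The window upstream of RPS29A had 19.0 and 83.6, and 28.1 and 110, with a departure of 0.14 (adjusted p = 0.2 from limma). The window between IZH3, a zinc homeostasis gene, and UBR2 had 24.4 and 84.5, and 37.3 and 104, with a departure of 0.70.

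Over all classes, and inside ORFs, the departures of weak windows went with those of the nearest strong window when it was close. For each member the nearest window of 100 or more on the chromosome was taken, and both departures were set side by side. Up to 1000 bp apart (120 pairs, of which 91 with the weak window inside an ORF and none at a tRNA gene) Spearman's rho between the departures was 0.65. From 1000 to 2000 bp (57 pairs) it was 0.76, from 2000 to 5000 bp (53 pairs) 0.33, from 5000 to 10000 bp (57 pairs) -0.04 and further apart (115 pairs) 0.07. A weak window's departure in replicate 1 set against its neighbour's in replicate 2 gave a Pearson's r of 0.62 up to 1000 bp, where the values compared come from no common library. These are descriptions over pairs that can share the strong window, and the class of the weak windows changed with the distance. No window in this comparison shared bases with its strong neighbour. Within the ORF class alone rho was 0.74 for the 91 windows up to 1000 bp away and 0.37 for the 100 further off. The unclassed windows did not show it, with 0.06 for the 18 up to 1000 bp away and 0.16 for the 43 further off, nor did those near chromosome ends, with -0.21 and -0.70 over 6 windows each. Over 1000 bp away it was 0.30 for the 107 tRNA windows and 0.40 for 26 upstream of ORFs. BUD20 and KRS1 above lay 524 and 475 bp from strong windows with departures of 1.32 and 1.35, and RPL42A lay 561 bp from one with -1.26.

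**Figure D5:**
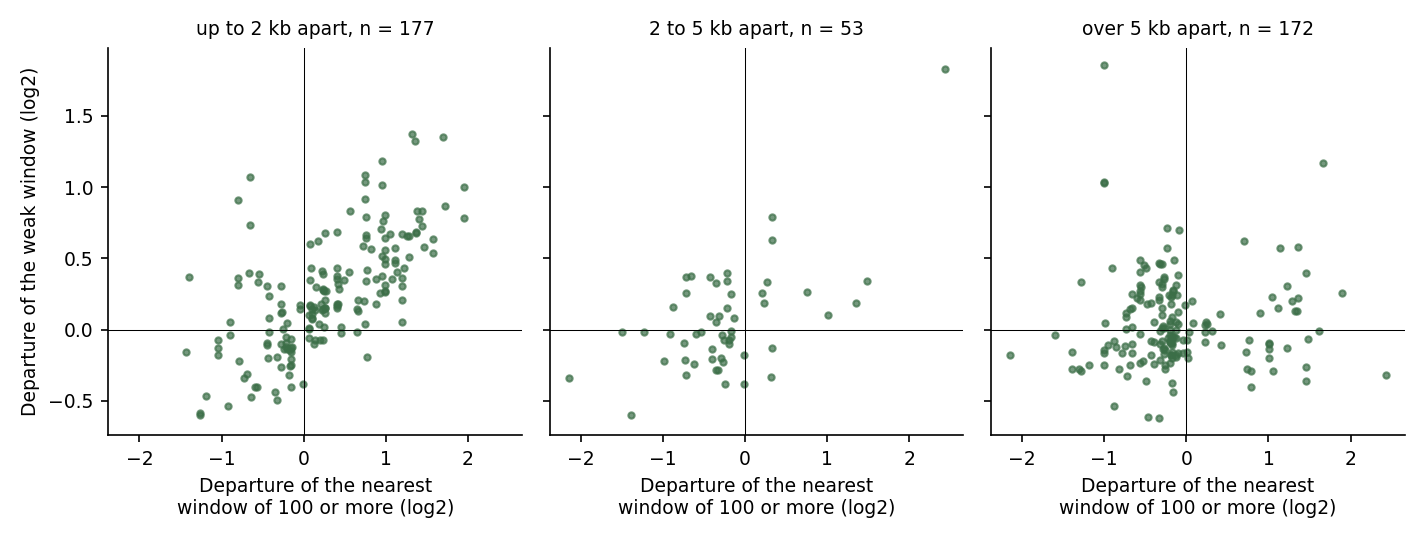
Departure of each weak window (y axis, log2) against that of the nearest window of 100 or more (x axis, log2), for pairs up to 2 kb apart (177), 2 to 5 kb apart (53) and over 5 kb apart (172). The points rise together in the left panel, with Spearman's rho 0.68, and show no common slope in the right one, with 0.04.

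Ribosomal protein genes showed this pairing within a gene. There were 55 of them with a weak window inside the ORF and a window of 100 or more within 500 bp before the start. The weak windows in the ORF averaged 81.7 at 0 min in the median gene, against 713 at the promoter window, at a median distance of 748 bp. Their departures went together over the 55 genes (rho 0.87, as a description). The time courses were not the same. At 10 min the ORF windows held a median of 53.0% and 55.9% of their 5 min signal (replicates 1 and 2) and the promoter windows 83.3% and 81.3%, and the ORF window was the lower in both replicates in all 55 genes, though the ORF windows were chosen for a low 0 min signal and the promoter windows for a high one. At 60 min 23.5% and 26.5% remained in the ORF and 31.8% and 33.2% at the promoter, with the ORF lower in both replicates in 44 genes and higher in both in 6.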

How the data were processed

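Paired reads were aligned by the authors using Bowtie2 against a modified sacCer3 joined to S. paradoxus CBS432. Summits came from MACS3, run on the 0 min ChIP against an untagged control. The authors deposited for each window a signal, the reads per 1000000 S. paradoxus reads. They also deposited the S. paradoxus read count of each library, used here only to recover read numbers. The paper states that reads of the S. paradoxus rDNA were left out of these counts. Per the labels, CASAVA 2.2 and SAMtools were used as well. Of the table, 1 line that is no window and 14 columns of other inputs were left out.

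Windows were classed from the summit and the RefSeq R64 gene table, with strand read from systematic names, in the order tRNA gene, rDNA (450 to 491 kb of chromosome XII), chromosome end, upstream, inside an ORF, other. Chromosome III of the files is modified, and positions are given as deposited. The planned motif search was not run and no window sequence is shown, since no genome was used here. The members, lists and tests were chosen with earlier results of these data known.

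Tests were run on log2(signal + 1) with limma (version 3.58.1, under R 4.3.3), time as a factor, two-sided. Fold changes on that scale understate the change of low windows. With 2 isolates per time, the spread is pooled over windows and times, and p-values measure only the spread between these isolates. The pooled standard error was the same for all windows in contrasts of single times. Same-numbered libraries come from the same isolate, so the numbers pair them. Their deviations correlated between -0.131 and 0.201 over the 28 pairs of times in weak windows (median 0.130). Decays were fitted with nls and SSasymp. Named windows are the 8 with the largest and 8 with the smallest called departure, the 4 lowest, 3 on either side of 100, the 4 highest and 4 lowest ratios to input, the 3 highest at 60 min and the highest of each class at 5 min, of which 1 is not reported here. The histone list and the nearest strong windows were added after the values were seen. Fits were tested on simulated data. Tables and figures were made with pandas 2.3.3, matplotlib 3.10.9, scipy 1.17.1 and numpy 2.4.6 in Python 3.11.15.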

Additional observations from a re-analysis of the deposited data

How the results depend on the processing

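Pseudocounts of 0.1 and 5, a minimum mean signal of 10, a trend in the spread and, added after the data were seen, only members over 300 bp from any other summit kept each of the 4 counts of limma calls within 1.5 times of the value given. So did scaling to the window total for the falls at 10 and 60 min, and centring on the median of all windows for the counts that fell less and more. With the isolate as a replicate block 401 and 390 weak windows were lower at 60 and 10 min, and 143 fell less and 54 more. Leaving out each library in turn gave 398 to 401 lower at 60 min, 250 to 389 lower at 10 min, 92 to 142 that fell less and 25 to 54 that fell more. Without 5 min replicate 2 there were 250 lower at 10 min and 27 that fell more, without 10 min replicate 1 there were 259 lower at 10 min, and without 5 min replicate 1 there were 25 that fell more. Among only the 41 members under 50, 40 were lower at 60 min, 37 at 10 min, 14 fell less and 8 more than their own median, and 40 passed the decay fit. Scaled to the window total, 241 weak windows passed the decay fit, against 59% of all windows, and the median ratio to input was 0.547 rather than 0.321. That ratio was 0.261 without replicate 1 and 0.376 without replicate 2. Windows with few reads, chromosome ends and repeated genes limit single values, and no untagged library was set beside these windows.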
